A study of Homo sapiens with 12 samples.

Results

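The genes described here are those of cholesterol synthesis, uptake, transport and control in 2 human prostate cancer lines exposed to nicotine. A list of 31 genes was set by name, and a gene counted as measured where a probe set carried its symbol and no other. Of these 31 genes, 28 were measured, among 11963 genes on the arrays, each read from its probe set with the highest mean. The probe sets of CYP51A1 carried several symbols and those of FDFT1 and NR1H2 were unlisted in the annotation, so these 3 genes were not analysed here. The measured genes were 7 of the mevalonate steps, 9 of the late sterol steps, 5 of the control of the SREBP factors, 4 of uptake, transport and storage, and 3 of efflux and the LXR receptor. The study asked how gene expression in these lines responded to nicotine.

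There were 4 groups of 3 arrays each, 12 arrays in all. They were LnCaP cells given 100 µM nicotine tartrate for 24 h, untreated LnCaP cells, 22RV1 cells given the same dose for the same time, and untreated 22RV1 cells. LnCaP is a line from a lymph node metastasis of a prostate carcinoma, and 22RV1 was derived from a xenograft of a prostate carcinoma that relapsed after castration. No vehicle is named for the untreated cells, and nothing says that replicates came from separate cultures, so the p-values reflect variation among the arrays at hand, part of which may be technical. RNA was labelled and hybridised to Affymetrix arrays, and the values are log2 expression levels as the authors deposited them. They show relative amounts of RNA in bulk cultures, in which fewer cells of a kind and less RNA per cell cannot be told apart.

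Cells build cholesterol from acetyl-CoA, first along the mevalonate steps to farnesyl diphosphate and then, through squalene and lanosterol, along the late sterol steps. The pathway is under feedback: when sterols in the endoplasmic reticulum are low, the escort SCAP carries the SREBP factors to the Golgi, where they are cut and freed to enter the nucleus and switch on the synthesis genes. When sterols are high, the INSIG proteins hold SCAP and SREBP back, and the LXR receptors turn on genes of cholesterol export. INSIG1 is itself a target of SREBP, as are most enzymes of the pathway. Prostate cancer cells are known for active lipid and sterol synthesis.

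The promoters of 5 genes are shown because their genes carry the results below: INSIG1, EBP and TMEM97, which had the lowest log2 fold changes under nicotine in LnCaP, TM7SF2, which lay on the other side, and SREBF2, which encodes a SREBP factor. Each is the 250 bases before the RefSeq transcription start on GRCh38.p14, on the plus strand, at chr7:155297628-155297877 (INSIG1), chrX:48521558-48521807 (EBP), chr17:28318950-28319199 (TMEM97), chr11:65111622-65111871 (TM7SF2) and chr22:41832855-41833104 (SREBF2). Capitals mark a CCAAT box, the E-box CACGTG or the sterol regulatory element core TCACNCCAC, on either strand.
INSIG1: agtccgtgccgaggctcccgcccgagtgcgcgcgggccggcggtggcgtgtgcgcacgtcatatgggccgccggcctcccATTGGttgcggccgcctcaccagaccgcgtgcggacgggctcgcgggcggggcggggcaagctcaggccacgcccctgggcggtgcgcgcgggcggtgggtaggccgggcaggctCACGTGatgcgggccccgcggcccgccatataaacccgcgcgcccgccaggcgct
EBP: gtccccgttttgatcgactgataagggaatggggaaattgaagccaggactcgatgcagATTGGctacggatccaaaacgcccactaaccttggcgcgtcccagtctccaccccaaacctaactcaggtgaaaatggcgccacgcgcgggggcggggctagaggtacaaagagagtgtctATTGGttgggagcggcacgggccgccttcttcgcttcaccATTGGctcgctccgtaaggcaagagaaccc
TMEM97: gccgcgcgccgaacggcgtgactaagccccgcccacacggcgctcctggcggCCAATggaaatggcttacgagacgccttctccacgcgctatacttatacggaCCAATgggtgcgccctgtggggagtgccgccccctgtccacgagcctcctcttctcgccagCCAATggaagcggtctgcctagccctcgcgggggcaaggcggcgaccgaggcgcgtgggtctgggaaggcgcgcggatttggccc
TM7SF2: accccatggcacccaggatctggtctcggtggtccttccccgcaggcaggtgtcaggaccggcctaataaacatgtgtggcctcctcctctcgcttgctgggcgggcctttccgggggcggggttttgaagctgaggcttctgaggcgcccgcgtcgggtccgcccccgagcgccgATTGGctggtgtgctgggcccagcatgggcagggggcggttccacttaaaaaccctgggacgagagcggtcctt
SREBF2: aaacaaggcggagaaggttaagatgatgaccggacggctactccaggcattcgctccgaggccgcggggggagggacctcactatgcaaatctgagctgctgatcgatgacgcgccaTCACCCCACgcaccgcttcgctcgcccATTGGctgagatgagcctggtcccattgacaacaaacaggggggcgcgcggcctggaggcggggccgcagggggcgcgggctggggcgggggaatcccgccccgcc

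The CCAAT box (CCAAT, or ATTGG on the other strand) was common among the sterol genes. It was found in the 250 bases before the start of 19 of the 25 measured sterol genes with a RefSeq promoter entry (76.0%), against 42.4% of 9563 genes tested on the arrays and 37.0% of 27305 genes in the table. Of the 14 synthesis genes with an entry, 13 held it and 9 held 2 or more copies (64.3%), against 14.6% of the genes tested on the arrays. EBP and TMEM97 held 3 copies each, while INSIG1, TM7SF2 and SREBF2 held 1 each. TCACNCCAC (or GTGGNGTGA) was found in 1 of the 25 genes, SREBF2, against 1.22% of the genes tested, CACGTG in 4 of 25 against 10.7%, and the GC box GGGCGG (or CCGCCC) in 23 of 25 against 67.6%. Overlapping matches were each counted, and a gene with several start entries was given its highest count. These are matches of letters, not sites shown to be bound.

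Both lines carried markers of luminal prostate cells, though not all at even levels. Over the 12 arrays the log2 level of KRT18 ran between 12.24 and 12.89 and that of HOXB13 between 10.97 and 11.80. Of the 7 measured luminal genes, limma called 4 higher in untreated LnCaP than in untreated 22RV1 (background 25.4%). KLK3 ran between 7.74 and 13.14, KLK2 between 7.94 and 10.74, TMPRSS2 between 8.88 and 10.84 and FOLH1 between 8.06 and 10.4. The leukocyte gene PTPRC stayed between 4.09 and 4.46 and the endothelial gene CDH5 between 3.65 and 4.27. Not every listed gene of other cell types was low. The endothelial gene VWF ran between 3.95 and 8.16 and was higher in untreated LnCaP. Of the fibroblast genes, COL1A1 ran between 7.32 and 7.62 and LUM between 2.84 and 7.32. The 4 arrays numbered 3 stood apart in the sterol genes. Relative to the mean of numbers 1 and 2 of the same group, the 16 synthesis genes had a median log2 difference on array 3 of 0.23 in nicotine-treated LnCaP, 0.40 in untreated LnCaP, 0.63 in nicotine-treated 22RV1 and 0.55 in untreated 22RV1, against 0.0083, 0.0040, 0.0061 and 0.027 for all genes. All 16 were positive in both 22RV1 groups. The SREBP control genes did not share this, with medians of -0.22, -0.046, -0.0091 and -0.19 in the same order of groups. Same-numbered nicotine and untreated arrays of a line deviated together, most closely for number 3 (correlations of 0.599 in LnCaP and 0.64 in 22RV1). In LnCaP, numbers 1 and 2 correlated at 0.371 and 0.225 with their own number and at 0.27 and 0.0455 when crossed. Equal numbers were taken as pairs. Each effect below is therefore given from the fit of group means and from the fit with the replicate number as a block, which removes what a pair shares.

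**Figure D1:**
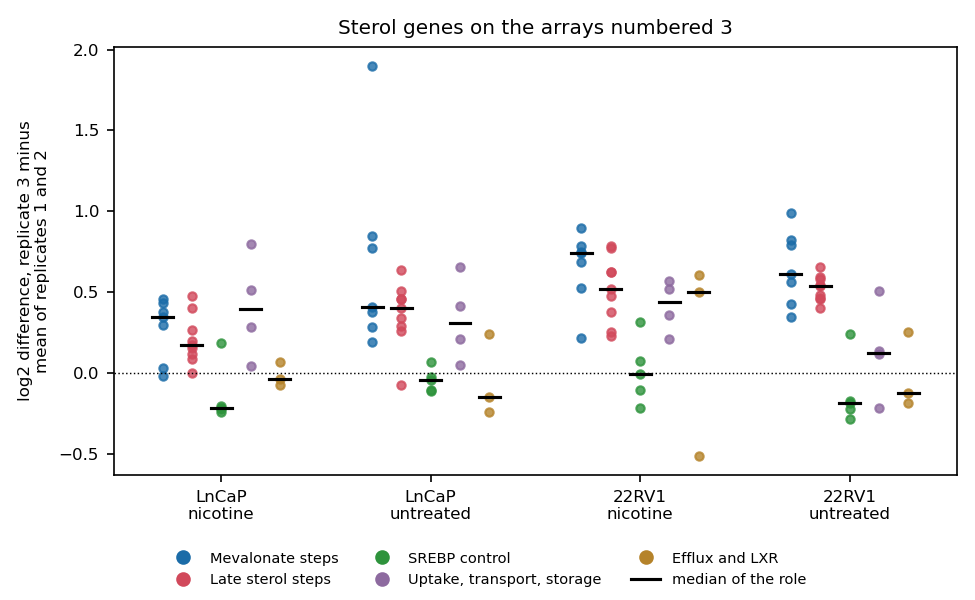
Log2 difference between the array numbered 3 and the mean of the arrays numbered 1 and 2 (vertical axis) in each of the 4 groups (horizontal axis), with 1 point per gene, coloured by role, and a bar at the median of each role. The mevalonate and late sterol genes lie mostly above 0 in each group, with medians of 0.34 and 0.17 in nicotine-treated LnCaP, and the SREBP control genes have medians below 0 in all 4 groups.

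In LnCaP, most sterol synthesis genes were lower under nicotine in same-numbered pairs. Of the 28 sterol genes, 21 had a negative log2 fold change (nicotine minus untreated), with a median of -0.22 over the sterol genes against -0.0014 over all genes. Group means alone did not carry this past the threshold: limma called 0 of 28 at an adjusted p under 0.05 over all genes, 7 had an unadjusted p under 0.05 (12.2% of all genes did), and the background was 0.694% of all genes called. With the replicate block, 10 fell (background 3.28% of genes called lower) and 1 rose (background 2.11% called higher). The genes that fell were ACAT2, MVK, IDI1 and FDPS of the mevalonate steps, SQLE, MSMO1, EBP and DHCR7 of the late steps, the feedback gene INSIG1 and the transport gene TMEM97, and the gene that rose was TM7SF2. Nicotine and untreated arrays did not overlap in 10 genes that were lower (background 10.1%) and 3 that were higher (background 7.1%), and 15 genes were lower in 3 of 3 pairs (background 21.8%).

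Without the arrays numbered 3, the fit of group means called EBP and TMEM97 lower (2 of 28, background 0.752%), and the block called EBP, INSIG1 and TMEM97 lower (background 0.995%). Leaving out 1 LnCaP pair at a time from the block left 7 genes lower without pair 1 (background 1.22%), 5 without pair 2 (background 0.945%) and 3 without pair 3 (background 0.936%). Calls over all genes thus fell too, from 3.28% lower with all pairs. TM7SF2 was not called in any of these 3 fits. EBP, INSIG1 and TMEM97 were called lower with the block whichever of the 6 pairs was left out. The median log2 fold change of the sterol genes was -0.091 without the arrays numbered 3, -0.12 without untreated replicate 3 alone and -0.33 without untreated replicate 2. Without untreated LnCaP replicate 3, the log2 fold changes of ACAT2, DHCR7, IDI1 and MVK were -0.29, -0.25, -0.24 and -0.17, and without nicotine-treated LnCaP replicate 3 that of TM7SF2 was 0.22, in each case over 1.5 times nearer to 0 than with all arrays. The cell division genes moved in the same groups: all 10 measured had negative values, with a median of -0.62. Of these 10, 4 fell on group means (background 0.694% called in either direction) and 8 with the block (background 3.28% called lower). Their mean log2 level lay between 8.43 and 8.71 on nicotine-treated LnCaP arrays and between 9.15 and 9.25 on untreated LnCaP arrays. Their part in the sterol results was not tested.

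**Figure D2:**
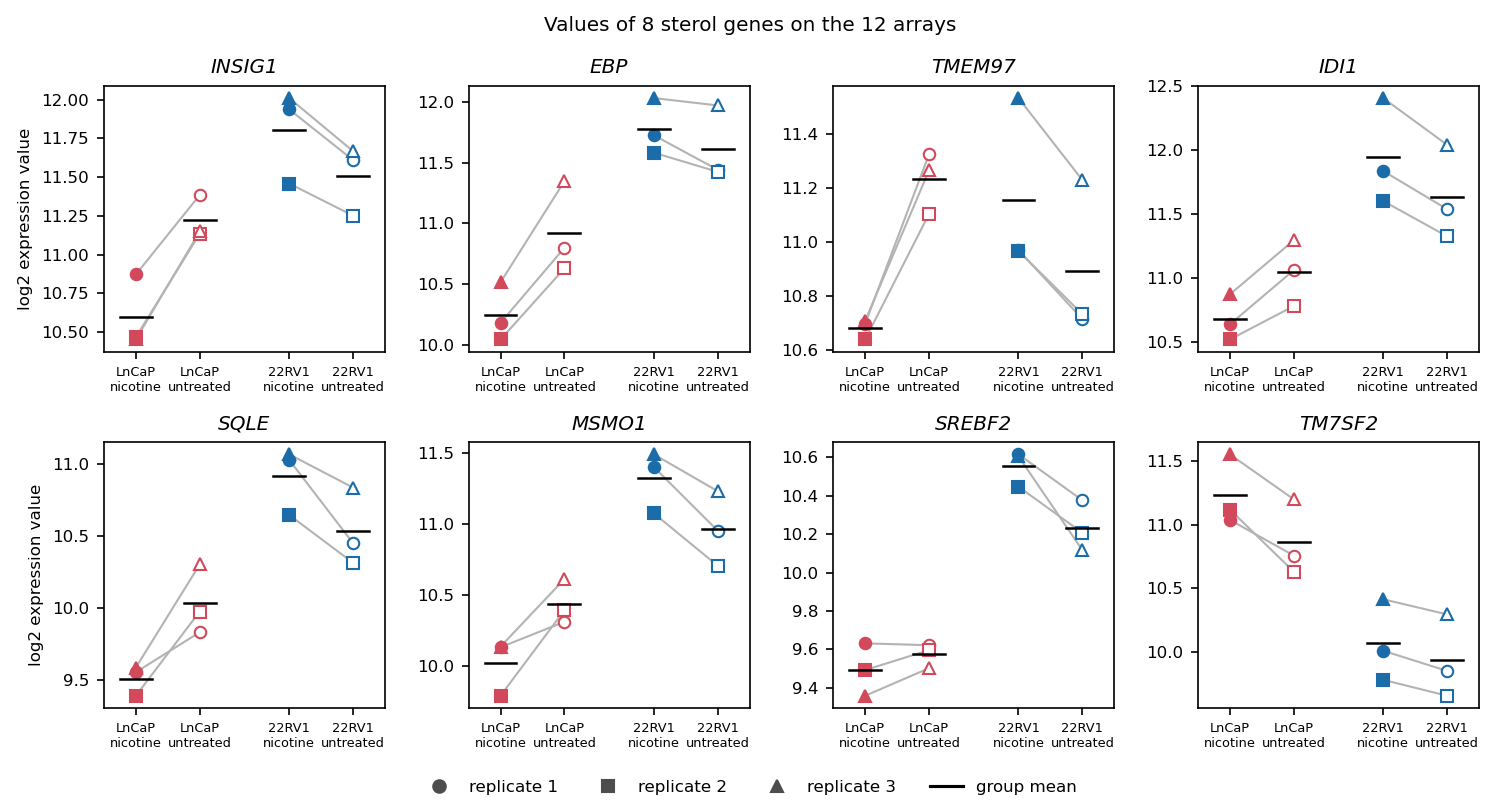
Log2 expression values (vertical axis, its own range in each panel) of 8 sterol genes on the 12 arrays, with nicotine-treated arrays as filled and untreated arrays as open symbols, symbol shape giving the replicate number, grey lines joining same-numbered arrays and black bars the group means. In INSIG1, EBP and TMEM97 all 3 LnCaP pairs are lower under nicotine and all 3 22RV1 pairs are higher, whereas TM7SF2 is higher under nicotine in all 6 pairs.

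INSIG1, the sterol-sensing brake on SREBP and itself one of its targets, read 10.87, 10.47 and 10.45 in nicotine-treated LnCaP and 11.38, 11.13 and 11.15 in untreated LnCaP (values of replicates 1, 2 and 3, here and below). The groups did not overlap. The log2 fold change was -0.63, with an SE of 0.17 and an adjusted p of 0.114 without the block and an SE of 0.072 and an adjusted p of 0.00547 with it. This is 1.54-fold lower under nicotine. Its other probe sets gave -0.58 and -0.46 in LnCaP. INSIG2, the related brake, read 8.96, 9.03 and 9.18 in nicotine-treated LnCaP and 8.64, 8.95 and 8.76 in untreated LnCaP. Here every nicotine-treated array was above every untreated one, the opposite side from INSIG1, with a log2 fold change of 0.27, with an SE of 0.10 and an adjusted p of 0.27 without the block and an SE of 0.083 and an adjusted p of 0.0961 with it.

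The other control genes had smaller differences in LnCaP. SREBF2, which encodes the SREBP factor most tied to cholesterol genes, read 9.63, 9.49 and 9.36 in nicotine-treated LnCaP and 9.62, 9.60 and 9.50 in untreated LnCaP, and the groups overlapped. SCAP, the escort protein, read 9.44, 9.58 and 9.27 in nicotine-treated LnCaP and 9.53, 9.56 and 9.50 in untreated LnCaP. MBTPS1, the Golgi protease that makes the first cut in SREBP, read 8.74, 8.78 and 8.54 in nicotine-treated LnCaP and 8.65, 8.69 and 8.74 in untreated LnCaP. Their log2 fold changes were -0.079 (SE 0.095), -0.10 (SE 0.10) and -0.0083 (SE 0.094), and none was called in either fit.

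Among the late sterol steps, EBP, the isomerase that shifts a double bond in the sterol ring, read 10.18, 10.04 and 10.51 in nicotine-treated LnCaP and 10.80, 10.63 and 11.35 in untreated LnCaP. The groups did not overlap, and the log2 fold change was -0.68, with an SE of 0.21 and an adjusted p of 0.167 without the block and an SE of 0.079 and an adjusted p of 0.00563 with it. This is 1.6-fold lower under nicotine. All 3 of its probe sets were lower, the others at -0.61 and -0.51. SQLE, squalene epoxidase, the enzyme that puts the first oxygen on the sterol backbone, read 9.55, 9.39 and 9.59 in nicotine-treated LnCaP and 9.83, 9.98 and 10.30 in untreated LnCaP, again without overlap. Its log2 fold change was -0.53, with an SE of 0.16 and an adjusted p of 0.167 without the block and an SE of 0.10 and an adjusted p of 0.02 with it. MSMO1, which removes methyl groups from the sterol ring, read 10.13, 9.79 and 10.14 in nicotine-treated LnCaP and 10.31, 10.39 and 10.61 in untreated LnCaP, with pair differences of -0.18, -0.60 and -0.47. Its log2 fold change was -0.42, with an SE of 0.15 and an adjusted p of 0.269 without the block and an SE of 0.09 and an adjusted p of 0.0329 with it.

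DHCR7, the reductase that makes cholesterol from its precursor, read 9.46, 9.45 and 9.72 in nicotine-treated LnCaP and 9.89, 9.70 and 10.25 in untreated LnCaP. Its groups overlapped only through untreated replicate 2 and nicotine replicate 3, and the log2 fold change was -0.40, with an SE of 0.21 and an adjusted p of 0.491 without the block and an SE of 0.075 and an adjusted p of 0.0187 with it. LSS, lanosterol synthase, read 9.70, 9.75 and 9.92 in nicotine-treated LnCaP and 9.93, 10.05 and 10.45 in untreated LnCaP, without overlap. NSDHL, a dehydrogenase that acts with MSMO1, read 7.86, 7.91 and 7.97 in nicotine-treated LnCaP and 8.08, 8.09 and 8.37 in untreated LnCaP, also without overlap. Neither was called in either fit, with log2 fold changes of -0.36 (SE 0.22) and -0.26 (SE 0.18) and adjusted p of 0.0588 and 0.0936 with the block.

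The remaining late genes lay on the other side. TM7SF2, a sterol reductase whose activity the lamin B receptor also has, read 11.04, 11.12 and 11.55 in nicotine-treated LnCaP and 10.76, 10.63 and 11.20 in untreated LnCaP. The groups overlapped through untreated replicate 3, but each pair was higher under nicotine, by 0.28, 0.49 and 0.35. The log2 fold change was 0.37, with an SE of 0.21 and an adjusted p of 0.555 without the block and an SE of 0.07 and an adjusted p of 0.0187 with it. SC5D, a sterol desaturase, read 10.83, 10.64 and 10.74 in nicotine-treated LnCaP and 10.64, 10.63 and 10.56 in untreated LnCaP, without overlap but with a log2 fold change of 0.13 (SE 0.17). HSD17B7, a ketoreductase of the pathway, read 9.64, 9.70 and 9.82 in nicotine-treated LnCaP and 9.51, 9.50 and 9.84 in untreated LnCaP. It had a log2 fold change of 0.11 (SE 0.22), with pair differences of 0.14, 0.20 and -0.020. Its probe set is of the type that may also bind related transcripts. Neither SC5D nor HSD17B7 was called in either fit. Over the 9 late genes the median log2 fold change was -0.36, with 6 negative.

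All 7 mevalonate genes had negative log2 fold changes in LnCaP, with a median of -0.31. ACAT2, the thiolase that joins acetyl units at the head of the pathway, read 9.07, 8.85 and 9.39 in nicotine-treated LnCaP and 9.39, 9.39 and 10.17 in untreated LnCaP. The highest nicotine array lay just below the lowest untreated one, and the log2 fold change was -0.55, with an SE of 0.33 and an adjusted p of 0.589 without the block and an SE of 0.09 and an adjusted p of 0.0123 with it. FDPS, which makes farnesyl diphosphate, read 10.68, 10.42 and 10.58 in nicotine-treated LnCaP and 10.79, 11.02 and 11.19 in untreated LnCaP, without overlap. Its log2 fold change was -0.43, with an SE of 0.17 and an adjusted p of 0.321 without the block and an SE of 0.10 and an adjusted p of 0.0428 with it. IDI1, the isomerase that supplies the other isoprene unit for that step, read 10.64, 10.52 and 10.87 in nicotine-treated LnCaP and 11.06, 10.78 and 11.30 in untreated LnCaP. Its groups overlapped through untreated replicate 2, and the pairs differed by -0.42, -0.26 and -0.42.

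IDI1 had a log2 fold change of -0.37, with an SE of 0.22 and an adjusted p of 0.583 without the block and an SE of 0.069 and an adjusted p of 0.019 with it, from a probe set of the type that may also bind related transcripts. MVK, mevalonate kinase, read 8.52, 8.63 and 8.95 in nicotine-treated LnCaP and 8.90, 8.83 and 9.28 in untreated LnCaP, with all 3 pairs lower and overlapping groups, and a log2 fold change of -0.31, with an SE of 0.25 and an adjusted p of 0.746 without the block and an SE of 0.074 and an adjusted p of 0.0477 with it. MVD, the decarboxylase, read 6.41, 6.49 and 6.79 in nicotine-treated LnCaP and 6.49, 6.63 and 7.41 in untreated LnCaP. PMVK, the next kinase after MVK, read 9.55, 9.50 and 9.51 in nicotine-treated LnCaP and 9.58, 9.59 and 9.78 in untreated LnCaP. MVD and PMVK were lower in all 3 pairs and were not called in either fit, with log2 fold changes of -0.28 (SE 0.29) and -0.13 (SE 0.11).

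HMGCS1, the synthase that makes HMG-CoA, depended on 1 array. It read 9.17, 8.91 and 9.50 in nicotine-treated LnCaP and 9.43, 7.91 and 10.57 in untreated LnCaP, with untreated replicate 2 far below the other untreated arrays. The log2 fold change was -0.11 (SE 0.51) with that array and -0.80 (SE 0.36) without it, and neither was called (adjusted p = 0.977 and 0.391). A second probe set of the gene read 9.08, 8.83 and 9.22 in nicotine-treated LnCaP and 9.44, 9.45 and 9.79 in untreated LnCaP, with no such low array. It gave a log2 fold change of -0.52 in a fit of all probe sets, with an adjusted p of 0.285 without the block and 0.0126 with it.

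In the role named uptake, transport and storage, 1 of the 4 genes fell with the block. SCARB1, a receptor that takes up cholesterol, is not among these 4 and is given below with other genes of sterol handling. TMEM97, the sigma receptor protein that binds NPC1 and responds to sterol supply, read 10.70, 10.64 and 10.71 in nicotine-treated LnCaP and 11.32, 11.10 and 11.26 in untreated LnCaP. The groups did not overlap, with a log2 fold change of -0.55, with an SE of 0.16 and an adjusted p of 0.157 without the block and an SE of 0.068 and an adjusted p of 0.00687 with it. This is 1.46-fold lower under nicotine. NPC1, which exports cholesterol from lysosomes, read 8.49, 8.87 and 9.48 in nicotine-treated LnCaP and 8.88, 9.28 and 9.73 in untreated LnCaP, and was lower in each pair. NPC2, its soluble partner, read 10.38, 10.37 and 10.89 in nicotine-treated LnCaP and 10.24, 10.37 and 10.72 in untreated LnCaP. SOAT1, which stores cholesterol as esters, read 6.08, 5.66 and 6.15 in nicotine-treated LnCaP and 5.79, 5.98 and 6.09 in untreated LnCaP. NPC1, NPC2 and SOAT1 were not called, with log2 fold changes of -0.35 (SE 0.24), 0.10 (SE 0.18) and 0.013 (SE 0.18).

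None of the 3 genes of efflux and the LXR receptor was called in LnCaP by limma in either fit (0 of 3, with 0 at an unadjusted p under 0.05). ABCA1, the pump that loads cholesterol onto apolipoproteins, read 4.45, 4.43 and 4.51 in nicotine-treated LnCaP and 4.40, 4.20 and 4.15 in untreated LnCaP, low on the scale of the arrays and without overlap. ABCG1, a further cholesterol exporter, read 6.36, 6.28 and 6.28 in nicotine-treated LnCaP and 6.39, 6.39 and 6.15 in untreated LnCaP. NR1H3, which encodes an LXR receptor, read 7.55, 7.67 and 7.53 in nicotine-treated LnCaP and 7.70, 7.65 and 7.92 in untreated LnCaP. The log2 fold changes were 0.21 (SE 0.14), -0.0045 (SE 0.14) and -0.17 (SE 0.14).

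**Figure D3:**
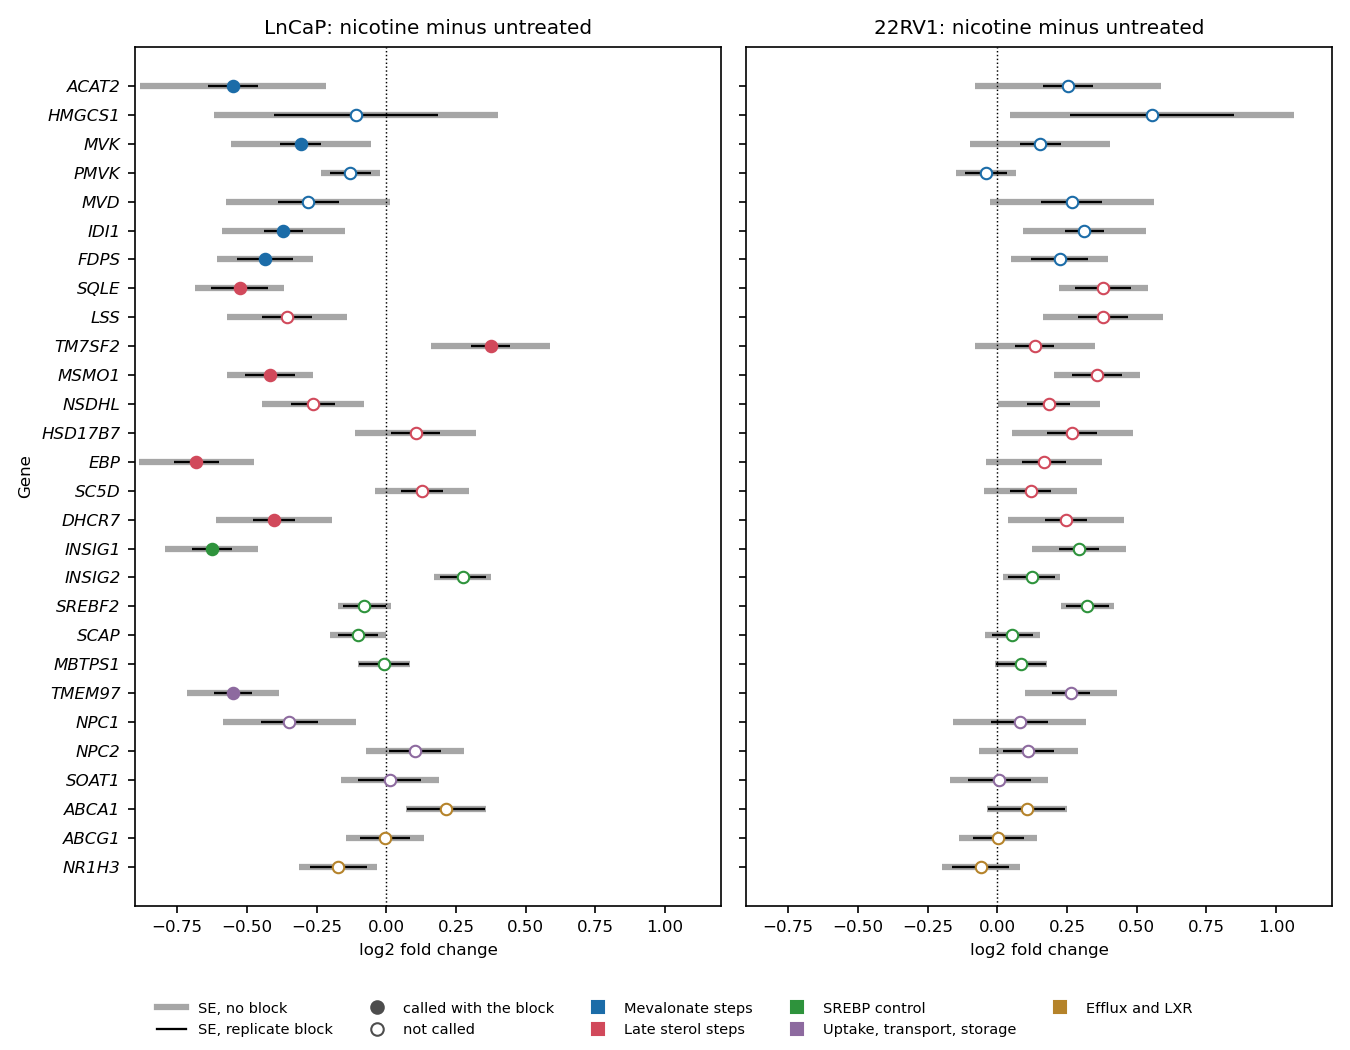
Log2 fold change, nicotine minus untreated (horizontal axis), of the 28 sterol genes (vertical axis, coloured by role) in LnCaP (left) and 22RV1 (right), with wide grey bars for 1 SE from the fit of group means and thin black bars for 1 SE from the fit with the replicate block. Filled points passed an adjusted p of 0.05 with the block, 11 in LnCaP and 0 in 22RV1; most LnCaP points lie left of 0 and most 22RV1 points right of it.

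In 22RV1, the same genes tended to the other side of 0, and none passed the test. Of the 28, 26 had a positive log2 fold change, with a median of 0.18 against -0.0071 over all genes. limma called 0 of 28 in the fit of group means, in which 3 had an unadjusted p under 0.05, and 0 of 28 with the block, in which 12 did. Of all 11963 genes, 633 (5.29%) had an unadjusted p under 0.05 on group means and 1351 (11.3%) with the block, and the background at an adjusted p under 0.05 was 0% in each. On group means, the size of the tendency varied when a single array was left out and its partner kept. Without nicotine-treated 22RV1 replicate 3, 19 of 28 were positive and the median was 0.04, and without untreated 22RV1 replicate 3 the median was 0.36. It was 0.31 without nicotine-treated replicate 2, 0.11 without untreated replicate 2, and 0.20, with 22 positive, without all arrays numbered 3. Leaving out a whole 22RV1 pair changed it less: without pairs 1, 2 and 3 in turn, the medians were 0.19, 0.21 and 0.20, with 25, 26 and 22 positive. Higher values in 3 of 3 pairs were seen for 20 of 28 genes (background 17.0%), and groups that did not overlap for 1, SREBF2 (background 5.42%). The cell division genes lay on the other side in 22RV1: all 10 had negative values, with a median of -0.23, and limma called 0 of 10, with 4 at an unadjusted p under 0.05.

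SREBF2 read 10.61, 10.45 and 10.60 in nicotine-treated 22RV1 and 10.38, 10.21 and 10.12 in untreated 22RV1, and all nicotine-treated arrays were above all untreated arrays. Its log2 fold change was 0.32, with an SE of 0.095 and an adjusted p of 0.879 without the block and an SE of 0.077 and an adjusted p of 0.217 with it. INSIG1 read 11.94, 11.46 and 12.01 in nicotine-treated 22RV1 and 11.61, 11.25 and 11.67 in untreated 22RV1. It was higher in each pair, by 0.33, 0.21 and 0.34, while the groups overlapped, and the log2 fold change was 0.29, with an SE of 0.17 and an adjusted p of 0.955 without the block and an SE of 0.072 and an adjusted p of 0.217 with it. INSIG2, SCAP and MBTPS1 had log2 fold changes of 0.12 (SE 0.10), 0.054 (SE 0.10) and 0.085 (SE 0.094). SQLE read 11.03, 10.65 and 11.07 in nicotine-treated 22RV1 and 10.45, 10.31 and 10.84 in untreated 22RV1, with a log2 fold change of 0.38, with an SE of 0.16 and an adjusted p of 0.921 without the block and an SE of 0.10 and an adjusted p of 0.234 with it.

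All 9 late sterol genes were positive in 22RV1, with a median of 0.25. MSMO1 read 11.40, 11.07 and 11.49 in nicotine-treated 22RV1 and 10.95, 10.71 and 11.23 in untreated 22RV1, and LSS read 10.78, 10.68 and 11.51 in nicotine-treated 22RV1 and 10.54, 10.36 and 10.93 in untreated 22RV1. Their log2 fold changes were 0.36 (SE 0.15) and 0.38 (SE 0.22). EBP read 11.73, 11.58 and 12.04 in nicotine-treated 22RV1 and 11.44, 11.43 and 11.97 in untreated 22RV1 and had a smaller one, 0.17 (SE 0.21), as had DHCR7 with 0.25 (SE 0.21). TM7SF2, HSD17B7 and SC5D had positive values in both lines, in 22RV1 0.13 (SE 0.21), 0.27 (SE 0.22) and 0.12 (SE 0.17), and NSDHL had 0.18 (SE 0.18) in 22RV1. TM7SF2 read 10.01, 9.78 and 10.41 in nicotine-treated 22RV1 and 9.85, 9.66 and 10.30 in untreated 22RV1, with pair differences of 0.16, 0.13 and 0.12.

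Of the 7 mevalonate genes, 6 were positive in 22RV1, with a median of 0.25. IDI1 read 11.84, 11.60 and 12.41 in nicotine-treated 22RV1 and 11.54, 11.33 and 12.04 in untreated 22RV1, higher in each pair by 0.30, 0.28 and 0.36. Its log2 fold change was 0.31, with an SE of 0.22 on group means. In the fit with the block, which has its own smaller SE, it had the smallest adjusted p of the sterol genes in 22RV1, 0.2. HMGCS1 had the largest difference and the widest error, 0.55 (SE 0.51), with 11.64, 11.03 and 12.07 in nicotine-treated 22RV1 and 11.02, 10.65 and 11.40 in untreated 22RV1. That SE was pooled over the 4 groups, and the widest spread was in untreated LnCaP (SD 1.33). The 22RV1 pairs differed by 0.62, 0.37 and 0.67. In the fit of all probe sets, the second probe set gave 0.38 in 22RV1, with an adjusted p of 0.199 with the block. ACAT2, MVK, MVD and FDPS had 0.25 (SE 0.33), 0.15 (SE 0.25), 0.27 (SE 0.29) and 0.22 (SE 0.17), and PMVK -0.04 (SE 0.11). TMEM97 read 10.97, 10.97 and 11.53 in nicotine-treated 22RV1 and 10.71, 10.73 and 11.23 in untreated 22RV1, with a log2 fold change of 0.26 (SE 0.16). NPC1, NPC2 and SOAT1 had 0.08 (SE 0.24), 0.11 (SE 0.18) and 0.0064 (SE 0.18), and ABCA1, ABCG1 and NR1H3 had 0.10 (SE 0.14), 0.0034 (SE 0.14) and -0.059 (SE 0.14).

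The values of the other synthesis genes in 22RV1 ran higher on the arrays numbered 3. ACAT2 read 10.64, 10.19 and 11.31 in nicotine-treated 22RV1 and 10.33, 9.93 and 11.12 in untreated 22RV1, and FDPS read 11.69, 11.51 and 12.13 in nicotine-treated 22RV1 and 11.54, 11.28 and 11.84 in untreated 22RV1. MVK read 9.38, 9.18 and 10.03 in nicotine-treated 22RV1 and 9.11, 9.10 and 9.92 in untreated 22RV1. In all 3 genes each pair was higher under nicotine, and the array numbered 3 was the highest of its group. MVD read 7.97, 7.59 and 8.56 in nicotine-treated 22RV1 and 7.55, 7.47 and 8.30 in untreated 22RV1, and DHCR7 read 10.22, 10.07 and 10.77 in nicotine-treated 22RV1 and 9.97, 9.86 and 10.49 in untreated 22RV1. PMVK read 9.83, 9.90 and 10.08 in nicotine-treated 22RV1 and 9.83, 9.90 and 10.20 in untreated 22RV1. Here too array 3 was the highest of each group, and PMVK was lower under nicotine in pair 3 and differed little in the other pairs. SC5D read 9.84, 9.78 and 10.44 in nicotine-treated 22RV1 and 9.79, 9.70 and 10.21 in untreated 22RV1, also with array 3 highest in both groups.

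Of the control genes in 22RV1, INSIG2 read 6.93, 6.94 and 6.82 in nicotine-treated 22RV1 and 6.89, 6.81 and 6.62 in untreated 22RV1. SCAP read 10.06, 10.13 and 9.88 in nicotine-treated 22RV1 and 9.99, 10.08 and 9.85 in untreated 22RV1, and MBTPS1 read 9.34, 9.28 and 9.30 in nicotine-treated 22RV1 and 9.32, 9.32 and 9.03 in untreated 22RV1. The groups overlapped in all 3, and INSIG2 and SCAP were higher under nicotine in each pair. NPC1 read 8.29, 8.45 and 8.58 in nicotine-treated 22RV1 and 8.48, 8.39 and 8.21 in untreated 22RV1, and NPC2 read 11.18, 11.10 and 11.66 in nicotine-treated 22RV1 and 11.14, 11.17 and 11.29 in untreated 22RV1, with groups that overlapped. ABCG1 read 5.56, 5.65 and 5.09 in nicotine-treated 22RV1 and 5.37, 5.62 and 5.30 in untreated 22RV1, and NR1H3 read 7.10, 6.90 and 7.50 in nicotine-treated 22RV1 and 7.09, 7.19 and 7.39 in untreated 22RV1. ABCA1 lay between 3.89 and 4.55 in nicotine-treated 22RV1 and between 3.96 and 4.11 in untreated 22RV1. The pairs of these 5 genes differed in sign.

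**Figure D4:**
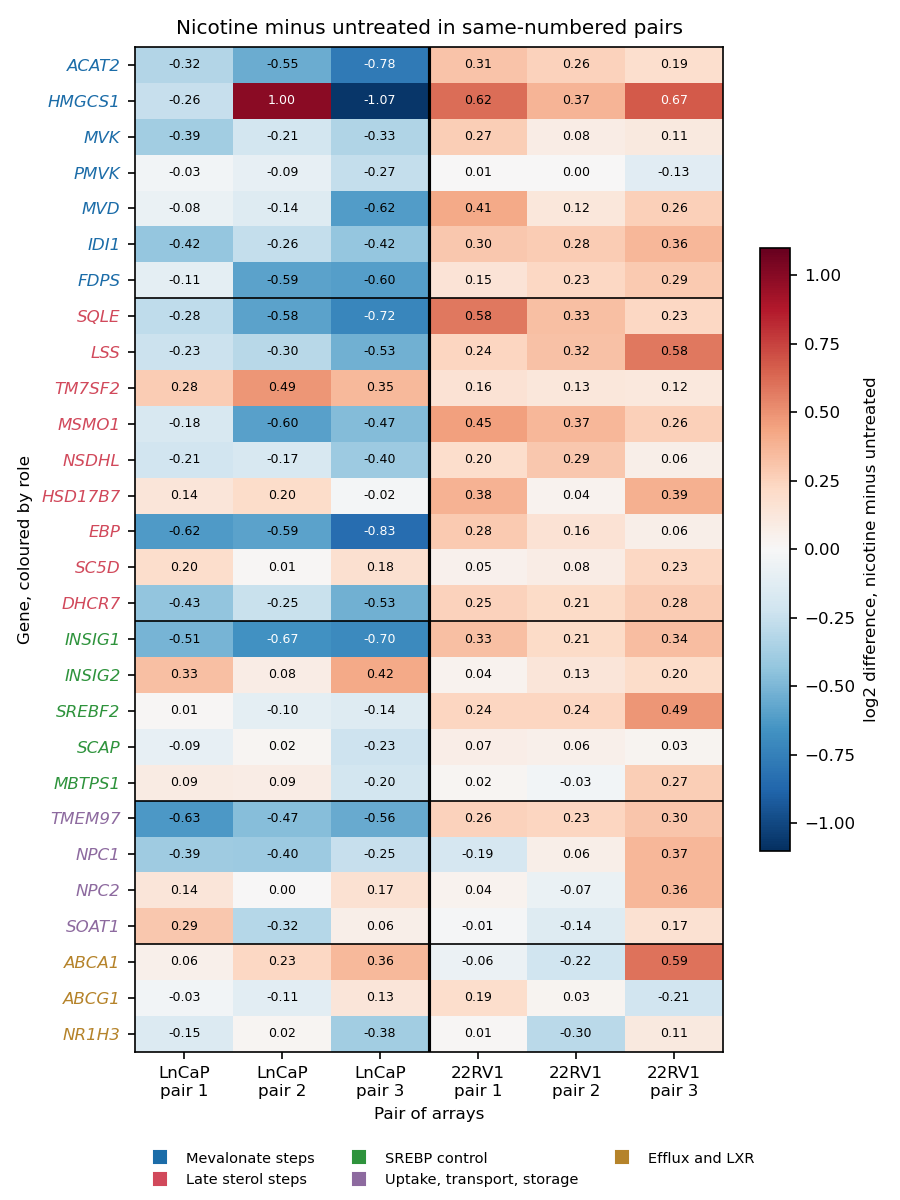
Heat map of the log2 difference, nicotine minus untreated, of the 28 sterol genes (vertical axis, by role) in the 3 same-numbered pairs of LnCaP and the 3 of 22RV1 (horizontal axis), with blue for lower and red for higher under nicotine. From ACAT2 to DHCR7 most LnCaP cells are blue and most 22RV1 cells red, and 13 of the 28 genes are lower in all LnCaP pairs and higher in all 22RV1 pairs.

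The effect of nicotine was then compared between the lines, as the effect in LnCaP minus the effect in 22RV1. By limma on group means, 0 of 28 sterol genes differed (background 0% of all genes, with 9 of the 28 at an unadjusted p under 0.05, as were 6.26% of all genes). With the replicate block, 4 differed, all lower in LnCaP (background 0.092%). These were INSIG1 with -0.92 (SE 0.10) and an adjusted p of 0.0333, EBP with -0.85 (SE 0.11) and 0.0426, TMEM97 with -0.81 (SE 0.096) and 0.0419, and IDI1 with -0.68 (SE 0.098) and 0.0432. The calls did not hold when any 1 of the 6 pairs, or the arrays numbered 3, were left out: the block then called 0 of 28. Calls over all genes fell too, from 0.092% lower to at most 0.00836% with 1 pair left out. With 1 pair left out, the median difference of the sterol genes lay between -0.445 and -0.373, against -0.437 with all pairs. On group means the difference for IDI1 was -0.45 without nicotine-treated 22RV1 replicate 3. SQLE had a difference of -0.91 (SE 0.14) and ACAT2 of -0.80 (SE 0.13), both with an adjusted p of 0.0581 with the block.

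Of the 28, 23 had a negative difference, with a median of -0.44. The median was -0.31 without the arrays numbered 3, -0.24 without untreated LnCaP replicate 3 and -0.29 without nicotine-treated 22RV1 replicate 3. By role, the medians were -0.66 for the mevalonate steps, -0.65 for the late sterol steps, -0.16 for SREBP control, -0.22 for uptake, transport and storage and -0.0079 for efflux and the LXR receptor, against 1.57e-04 for all genes. SREBF2 had -0.40 (SE 0.13) and an adjusted p of 0.71. In 13 of the 28 genes all 3 LnCaP pairs were lower and all 3 22RV1 pairs higher under nicotine (background 2.62%). They were ACAT2, MVK, MVD, IDI1, FDPS, SQLE, LSS, MSMO1, NSDHL, EBP, DHCR7, INSIG1 and TMEM97. The second HMGCS1 probe set differed by -0.89, with an adjusted p of 0.658 without the block and 0.0344 with it, in the fit of all probe sets.

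Over both lines together, limma called 0 of 28 genes for the average effect of nicotine on group means (background 0.376%, with 1 of the 28 at an unadjusted p under 0.05, as were 11.6% of all genes). With the block, TM7SF2 was higher under nicotine (background 1.28%), at 0.25 (SE 0.049) with an adjusted p of 0.0322, and EBP lower (background 2.03%), at -0.26 (SE 0.056) with an adjusted p of 0.0449. Neither was called once any 1 pair was left out. Calls over all genes fell as well in these fits, to between 0.159% and 0.677% higher and between 0.184% and 1.07% lower. On group means, TM7SF2 had an average effect of 0.17 without nicotine-treated 22RV1 replicate 3, and EBP had -0.15 without untreated LnCaP replicate 3 and -0.17 without untreated 22RV1 replicate 3.

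The untreated lines differed in many sterol genes, as they did in many genes overall. LnCaP was higher than 22RV1 in 6 of 28 (background 25.4%) and lower in 12 of 28 (background 22.4%). All 7 mevalonate genes had lower values in LnCaP, 5 of them past the test, with a median log2 fold change (LnCaP minus 22RV1) of -0.59. Many of the lower calls were lost when 1 array was left out, though not always with a smaller log2 fold change. IDI1 was at -0.60 without untreated LnCaP replicate 1 and -0.64 without untreated 22RV1 replicate 1, against -0.59 with all arrays. Without untreated 22RV1 replicate 3 it was nearer to 0, at -0.39. Without untreated LnCaP replicate 1 (background 20.5% lower), and likewise without untreated 22RV1 replicate 3 (background 21.6%), 5 genes were called lower. PMVK, MVD, IDI1, FDPS, SQLE, MSMO1 and EBP then no longer passed. Without untreated LnCaP replicate 2, 7 were called lower (background 20.6%), and PMVK, MVD, IDI1, SQLE and EBP no longer passed. Without untreated 22RV1 replicate 1, IDI1 no longer passed. The cell division genes differed between the untreated lines as well, with 7 of 10 lower in LnCaP, and their part in the sterol differences was not tested.

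**Figure D5:**
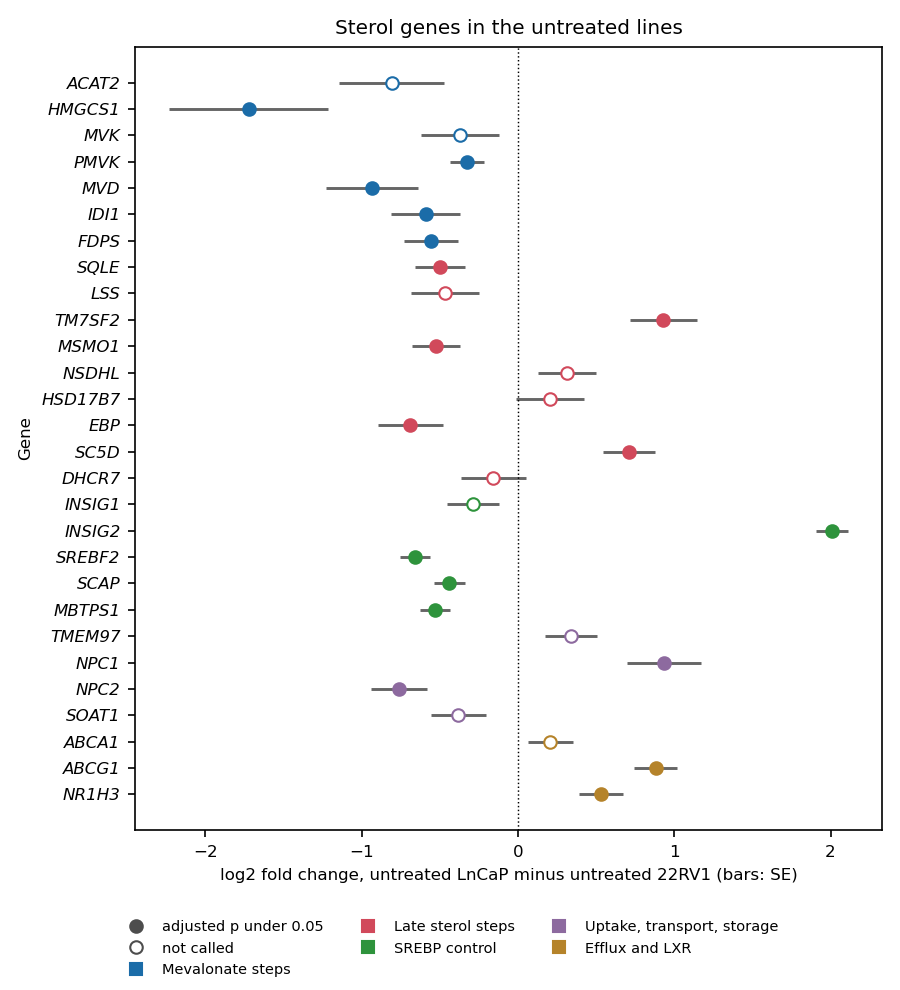
Log2 fold change, untreated LnCaP minus untreated 22RV1 (horizontal axis), of the 28 sterol genes (vertical axis, coloured by role), with bars for 1 SE from the fit of group means and filled points for genes with an adjusted p under 0.05. INSIG2 lies far to the right at 2.01 and HMGCS1 far to the left at -1.72 (-1.03 without untreated LnCaP replicate 2), and all 7 mevalonate genes lie left of 0.

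INSIG2 had the widest gap in the set: it read 8.64, 8.95 and 8.76 in untreated LnCaP and 6.89, 6.81 and 6.62 in untreated 22RV1, a log2 fold change of 2.01 (SE 0.10, adjusted p = 1.28e-08). INSIG1 did not pass, at -0.29 (SE 0.17), and its other probe sets gave 0.012 and -0.027. SREBF2 read 9.62, 9.60 and 9.50 in untreated LnCaP and 10.38, 10.21 and 10.12 in untreated 22RV1, and was lower in LnCaP, at -0.66 (SE 0.095, adjusted p = 0.000103). SCAP read 9.53, 9.56 and 9.50 in untreated LnCaP and 9.99, 10.08 and 9.85 in untreated 22RV1, and MBTPS1 read 8.65, 8.69 and 8.74 in untreated LnCaP and 9.32, 9.32 and 9.03 in untreated 22RV1. Both were lower in LnCaP without overlap, at -0.44 (SE 0.10) and -0.53 (SE 0.094), with adjusted p of 0.00288 and 0.000506. Of the 5 control genes, 1 was thus higher in LnCaP and 3 lower.

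HMGCS1 was lower in LnCaP, at -1.72 (SE 0.51, adjusted p = 0.0141), and read 9.43, 7.91 and 10.57 in untreated LnCaP and 11.02, 10.65 and 11.40 in untreated 22RV1. Without the low untreated LnCaP replicate 2 the log2 fold change was -1.03 (SE 0.36, adjusted p = 0.0402), and the second probe set gave -0.89. MVD, IDI1, FDPS and PMVK were lower too, at -0.93 (SE 0.29), -0.59 (SE 0.22), -0.56 (SE 0.17) and -0.33 (SE 0.11), with adjusted p of 0.0198, 0.0444, 0.0183 and 0.0239. ACAT2 and MVK did not pass, at -0.81 (SE 0.33) and -0.37 (SE 0.25). PMVK and IDI1 were -0.21 and -0.39 without untreated 22RV1 replicate 3. In the late steps SQLE, MSMO1 and EBP were lower in LnCaP, at -0.50 (SE 0.16), -0.52 (SE 0.15) and -0.69 (SE 0.21), although the dimmest probe set of EBP gave 0.039. TM7SF2 was higher, at 0.93 (SE 0.21, adjusted p = 0.00319), and SC5D too, at 0.71 (SE 0.17, adjusted p = 0.00359), while a dimmer probe set of SC5D gave -0.74.

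The cholesterol transporters of the lysosome differed in opposite directions between the lines. NPC1 was higher in LnCaP, at 0.93 (SE 0.24), and read 8.88, 9.28 and 9.73 in untreated LnCaP and 8.48, 8.39 and 8.21 in untreated 22RV1, without overlap. NPC2 was lower in LnCaP, at -0.76 (SE 0.18), and read 10.24, 10.37 and 10.72 in untreated LnCaP and 11.14, 11.17 and 11.29 in untreated 22RV1, also without overlap. Their adjusted p were 0.00593 and 0.00331. ABCG1 read 6.39, 6.39 and 6.15 in untreated LnCaP and 5.37, 5.62 and 5.30 in untreated 22RV1, higher in LnCaP by 0.88 (SE 0.14, adjusted p = 0.000205). NR1H3 read 7.70, 7.65 and 7.92 in untreated LnCaP and 7.09, 7.19 and 7.39 in untreated 22RV1, higher by 0.53 (SE 0.14, adjusted p = 0.00734). TMEM97, SOAT1 and ABCA1 did not pass on group means, at 0.34 (SE 0.16), -0.38 (SE 0.18) and 0.21 (SE 0.14).

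Genes around the pathway were counted for nicotine in LnCaP, where 0.694% of all genes were called on group means, and 3.28% lower and 2.11% higher with the block. All 9 measured genes of the fatty acid arm, which SREBP factors also drive, had negative log2 fold changes, with a median of -0.25. FASN, fatty acid synthase, fell by 0.65 on the log2 scale (SE 0.13, adjusted p = 0.0407), and with the block FADS2, ELOVL6 and SCD fell as well, at -0.44, -0.46 and -0.29. Of 11 other genes of sterol handling, 1 fell: SCARB1, the receptor that takes up cholesterol from HDL, at -0.54 (SE 0.099, adjusted p = 0.0381). limma called 0 of 10 genes of the isoprenoid branch, which shares the mevalonate steps, with 2 at an unadjusted p under 0.05 and a median of -0.055, and PDSS1, a subunit of the enzyme that makes the ubiquinone side chain, fell with the block at -0.69. It called 0 of 6 genes of SREBP processing and sterol sensing, with 2 at an unadjusted p under 0.05, and ERLIN2 rose with the block at 0.28. In 22RV1, limma called 0 of the 9, 11, 10 and 6 genes in either fit, with 0, 1, 1 and 0 at an unadjusted p under 0.05 on group means.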

How the data were processed

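The authors deposited log2 expression values of 22277 probe sets on 12 Affymetrix arrays, with a normalization not given in the sources used here. They were taken without further scaling or filter, with array medians between 6.61 and 6.71. The number of arrays limits the precision (median SE 0.11 for an effect within 1 line). Of the probe sets, 19070 had 1 symbol in the platform annotation, 1043 several and 2164 were unlisted, and the brightest was used for each of 11963 genes. limma 3.58.1 in R 4.3.3 fitted 4 group means over all 12 arrays, with two-sided tests, Benjamini-Hochberg adjustment over all genes within each of 5 contrasts and a threshold of 0.05, and was tested on simulated data. The members, roles and lists were chosen with earlier results of these data known. By the rule for named genes, every listed gene was accounted for, called members were given array by array, and other lists as counts with up to 4 values.

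The labels number the replicates alike. Deviations of same-numbered arrays from their group means correlated at 0.371, 0.225 and 0.599 in LnCaP and 0.465, 0.454 and 0.64 in 22RV1 over all genes, all above 0.1, and equal numbers were treated as pairs within a line (6 blocks). The numbers come from the labels and the pairing from the data. In LnCaP, untreated replicate 2 correlated more with nicotine replicate 1 (0.27) than with its own number, and the LnCaP calls with the block rest on this pairing. Alternatives were other scalings, array weights, filters, probe set rules, priors, the line alone and arrays or pairs left out. Promoters came from RefSeq (GRCh38.p14), with 25 of 28 genes matched.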

Additional observations from a re-analysis of the deposited data

Results flagged for a closer look

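In 4 sterol genes the effect of nicotine in LnCaP differed from that in 22RV1 by limma's test of the difference with the replicate block. These were INSIG1 by -0.92, EBP by -0.85, TMEM97 by -0.81 and IDI1 by -0.68 on the log2 scale (LnCaP minus 22RV1, background 0.092% lower). Each was lower in 3 of 3 LnCaP pairs and higher in 3 of 3 22RV1 pairs (background 2.62%). None of the 4 passed limma's test on group means, with adjusted p between 0.678 and 0.792 (background 0%). Leaving out any 1 pair ended all 4 calls, and at most 0.00836% of all genes were then called lower.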

How the results depend on the processing

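For nicotine in LnCaP, the count of called sterol genes, 0 on group means, was 11 with the replicate block and 2 without the arrays numbered 3. Chosen after seeing the data, the replicate block gave 3 without the arrays numbered 3, 7, 5 and 3 without LnCaP pairs 1, 2 and 3, and 8, 8 and 11 without 22RV1 pairs 1, 2 and 3. Of all genes, 0.995% were called lower without the arrays numbered 3, and 1.22%, 0.945% and 0.936% without these LnCaP pairs. Without these 22RV1 pairs, 2.46%, 2.43% and 3.4% of all genes were called lower and 1.55%, 1.53% and 2.34% higher. With the replicate block the average effect gave 2 calls and the difference of effects 4, and both gave 0 without any 1 pair or without the arrays numbered 3. Calls over all genes fell in these fits too. With 1 pair left out, at most 0.677% were higher and 1.07% lower for the average effect. For the difference of effects at most 0.00836% were lower. The untreated lines gave 18 calls, and between 11 and 21 with 1 array left out, the lowest without untreated LnCaP replicate 1. With 1 array left out, the counts for nicotine in either line, their average and their difference stayed at 0, but fold changes moved by over 1.5 times: in LnCaP, ACAT2 lay between -0.69 and -0.29, DHCR7 between -0.53 and -0.25, IDI1 between -0.50 and -0.24, MVK between -0.43 and -0.17 and TM7SF2 between 0.22 and 0.54, the nearest to 0 without untreated LnCaP replicate 3 (TM7SF2: nicotine-treated replicate 3). The median average effect of the sterol genes had no stable sign, at -0.026 with all arrays, 0.0071 without the arrays numbered 3 and 0.018 with array weights. For nicotine in 22RV1, the block left the count at 0. The untreated lines were not taken as paired by number: same-numbered arrays correlated at 0.0815, 0.15 and 0.253 across lines, the first of them not above 0.1. Untreated 22RV1 replicate 1 correlated more with LnCaP replicate 2 (0.147) than with its own number, a mismatch also seen for 1 array within LnCaP. With the replicate block over both lines, the untreated lines gave 24 calls, and 52.6% of all genes were called. Array weights, quantile normalization, median centring, a filter on dim genes, the mean of probe sets, all probe sets, a trended robust prior and the arrays of the line alone changed no call count by over 1.5 times. Having 3 arrays a group limits the precision.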
